A study of Homo sapiens with 12 samples.

Results

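Chromatin is edited by enzymes that add or remove acetyl and methyl groups on histones and DNA, read by proteins with bromodomains, chromodomains or PHD fingers, and moved by ATP-driven remodelling complexes. The genes described here are the measured members of these families in A375 cells, a human melanoma line that carries the BRAF V600E mutation. They were chosen by symbol, as the genes of the bromodomain, KAT, KDM, KMT, HDAC, SIRT, SMARC, ARID, CBX, CHD, SETD, PHF, EZH, DNMT, TET, PRMT, ING and high mobility group families, and 65 of the 8579 genes in the count table met that choice. A further 3 symbols with a hyphen, which name antisense transcripts, were left out. Many genes of these families were not in the table, among them HDAC1, HDAC2, HDAC3, EZH2, DNMT1, SMARCA4 and ARID1A. Counts by family below therefore cover the listed members only and not the whole families. Mean counts of the 65 members over the libraries ran from 202 to 7753. The BET bromodomain genes that encode the direct targets of one of the drugs were not analysed here.

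Libraries came from 4 groups of cells, each held for 72 h in DMEM with 10% serum. COMBO cells received 2.5 µM SEL201 together with 50 nM OTX015. OTX015 cells received 50 nM OTX015 alone, SEL201 cells received 2.5 µM SEL201 alone, and UNTREATED cells received the solvent DMSO. SEL201 blocks MNK1 and MNK2, kinases that act on the cap-binding translation factor eIF4E. OTX015 occupies the acetyl-lysine pockets of BET bromodomain proteins, which read acetylated histones at active promoters and enhancers. Each group had 3 libraries, numbered 1 to 3, of poly(A)-selected, stranded, paired-end RNA-seq. All groups share this single cell line, and the labels do not say whether the libraries of a group came from separate cultures, so a p-value here sets a change against the spread of these libraries only, which could be technical.

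As background, lysine acetyltransferases such as KAT2B and KAT8 acetylate histone tails, and histone deacetylases and sirtuins remove those marks, the sirtuins with NAD+ as co-substrate. Lysine methyltransferases and demethylases set the methyl marks that Polycomb and other readers bind, and DNMT and TET enzymes write and oxidise DNA methylation. SWI/SNF complexes slide and evict nucleosomes, and ARID proteins bind DNA, some as subunits of such complexes and some as separate transcription factors.

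To show what the start-site sequence of members on each side looks like, the 250 bases before the start of 2 members that rose and 2 that fell with COMBO are given as listed by RefSeq for GRCh38.p14. Each of these genes has a single listed start. Capitals mark the GC box GGGCGG on either strand and, in CBX7, also the CCAAT box. KAT2B lies at chr3:20040196-20040445 on the plus strand and KDM1B at chr6:18155172-18155421 on the plus strand. PHF2 lies at chr9:93576334-93576583 on the plus strand and CBX7 at chr22:39152681-39152930 on the minus strand.
KAT2B: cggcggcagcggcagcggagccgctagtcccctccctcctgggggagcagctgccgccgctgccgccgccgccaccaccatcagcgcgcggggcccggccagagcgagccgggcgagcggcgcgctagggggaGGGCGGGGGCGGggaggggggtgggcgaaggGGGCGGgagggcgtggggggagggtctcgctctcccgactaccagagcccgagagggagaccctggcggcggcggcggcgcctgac
KDM1B: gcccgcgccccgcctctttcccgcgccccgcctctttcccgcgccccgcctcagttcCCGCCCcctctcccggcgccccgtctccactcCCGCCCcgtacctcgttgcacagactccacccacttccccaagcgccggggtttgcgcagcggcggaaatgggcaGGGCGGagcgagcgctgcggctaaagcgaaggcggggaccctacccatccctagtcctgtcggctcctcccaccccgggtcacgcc
PHF2: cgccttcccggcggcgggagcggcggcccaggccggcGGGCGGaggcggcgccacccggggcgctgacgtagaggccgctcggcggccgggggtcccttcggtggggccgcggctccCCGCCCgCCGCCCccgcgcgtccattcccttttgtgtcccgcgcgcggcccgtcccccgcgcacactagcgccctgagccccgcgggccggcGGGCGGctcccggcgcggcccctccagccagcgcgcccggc
CBX7: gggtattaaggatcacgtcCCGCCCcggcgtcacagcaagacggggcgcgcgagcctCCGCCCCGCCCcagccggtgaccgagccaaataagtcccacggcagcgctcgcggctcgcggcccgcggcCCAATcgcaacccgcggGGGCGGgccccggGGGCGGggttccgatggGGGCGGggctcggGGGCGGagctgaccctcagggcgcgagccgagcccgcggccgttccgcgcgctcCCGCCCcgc

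RefSeq listed 90 such promoters for 51 of the 65 members. A GC box stood in 63.2% of the promoters of members that rose with COMBO, in 57.6% of those of members that fell, and in 60.5% of those of members not called. Over all 35116 listed promoters, which belong to 27305 genes and were not limited to genes in the count table, the share was 42.6%. Median GC content was 66% in the members' promoters and 58% in all, and the motif shares were not adjusted for it. CCGGAAGT, the core of ETS factor sites, was found in no promoter of members that rose or fell, among 19 and 33 promoters, and in 4 of the 38 of members not called; several promoters can belong to 1 gene. The other motifs searched on both strands of the members' promoters and of all promoters were CCAAT (27.8% of the members' promoters and 32% of all), CACGTG (7.78% and 6.34%), CCGGAAGT (4.44% and 3.42%), TATAAA (3.33% and 10.7%) and TGACGTCA (1.11% and 1.65%). These are letter matches and not measured binding sites.

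Counts assigned to the 8579 genes totalled 15146071 to 24111541 per library. Of 22 marker genes looked up to check the line, 8 were in the table, and all 8 were on the melanocyte and melanoma list. From that list SOX10, TYR, DCT, TYRP1, PRAME and AXL were not in the table, so absent markers of other cell types tell little about identity. MITF, the melanocyte master regulator, averaged 154 CPM (counts scaled to library size) in COMBO, 147 CPM in OTX015, 147 CPM in SEL201 and 173 CPM in UNTREATED libraries. Group means were 4 to 5.5 CPM for PMEL, 4.19 to 6.58 CPM for MLANA and 4.96 to 6.43 CPM for MIA. For S100B, S100A1, NGFR and SOX9 they were 18.7 to 103 CPM. Libraries with the same number deviated together from their group means, and the 4 libraries numbered 3 stood apart for some members, such as HDAC9. Counts were therefore also compared with the library number as a block, and without the number 3 libraries.

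With COMBO, 15 members were higher and 17 were lower than in UNTREATED libraries (edgeR adjusted p under 0.05), which is 23.1% and 26.2% of the 65. Among all genes tested, 28.3% were higher and 29.6% lower, so the members changed no more often than the background. With the library number as a block the counts were 18 and 22, against 33.5% and 34.2% of all genes in that fit. Without the 4 libraries numbered 3 they were 15 and 16. With OTX015 alone, 16 members were higher and 13 lower, against 23.3% and 24.7% of all genes. With the block 23 were higher and 20 lower, against 29.7% and 29.9% of all genes, and without the number 3 libraries 12 were higher and 12 lower. With SEL201 alone, 8 members were higher and 3 lower, against 10.1% and 11.1% of all genes. The SEL201 counts were 13 and 10 with the block, against 18% and 19.1% of all genes in that fit, and 7 and 5 without the number 3 libraries. Changes were small in size. The median absolute log2 change of the members was 0.17 for COMBO, 0.15 for OTX015 and 0.08 for SEL201, beside 0.26, 0.20 and 0.12 over all genes. A called change of at least 1.5-fold with COMBO was reached by 3 members upward, KAT2B, PHF2P2 and SIRT4, where 6.94% of all genes reached it, and by 5 downward, ARID3A, HDAC9, SMARCD3, TET1 and ARID3B, where 13.4% of all genes did.

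**Figure D1:**
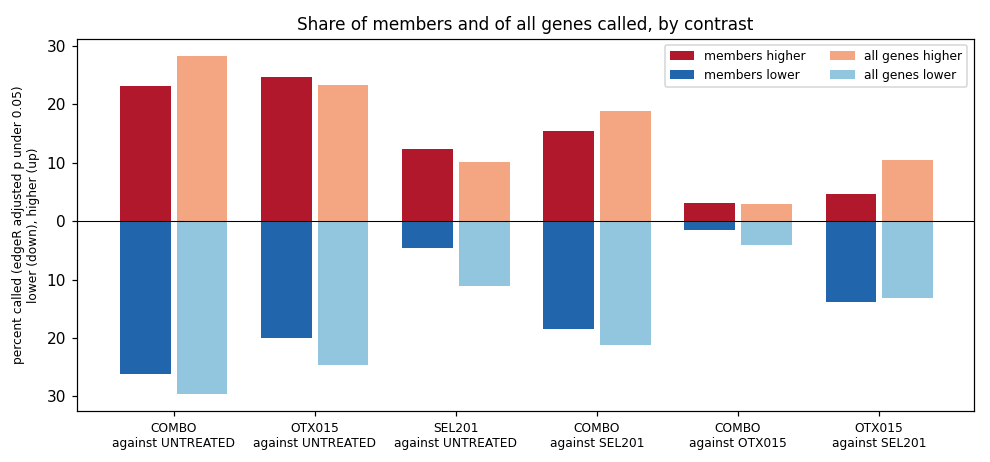
Percent of the 65 members and of all 8579 genes called at edgeR adjusted p under 0.05, higher drawn upward and lower drawn downward, for 6 contrasts (n = 3 libraries a group). With COMBO against UNTREATED the members' bars reach 23.1% and 26.2%, and those of all genes 28.3% and 29.6%.

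**Figure D2:**
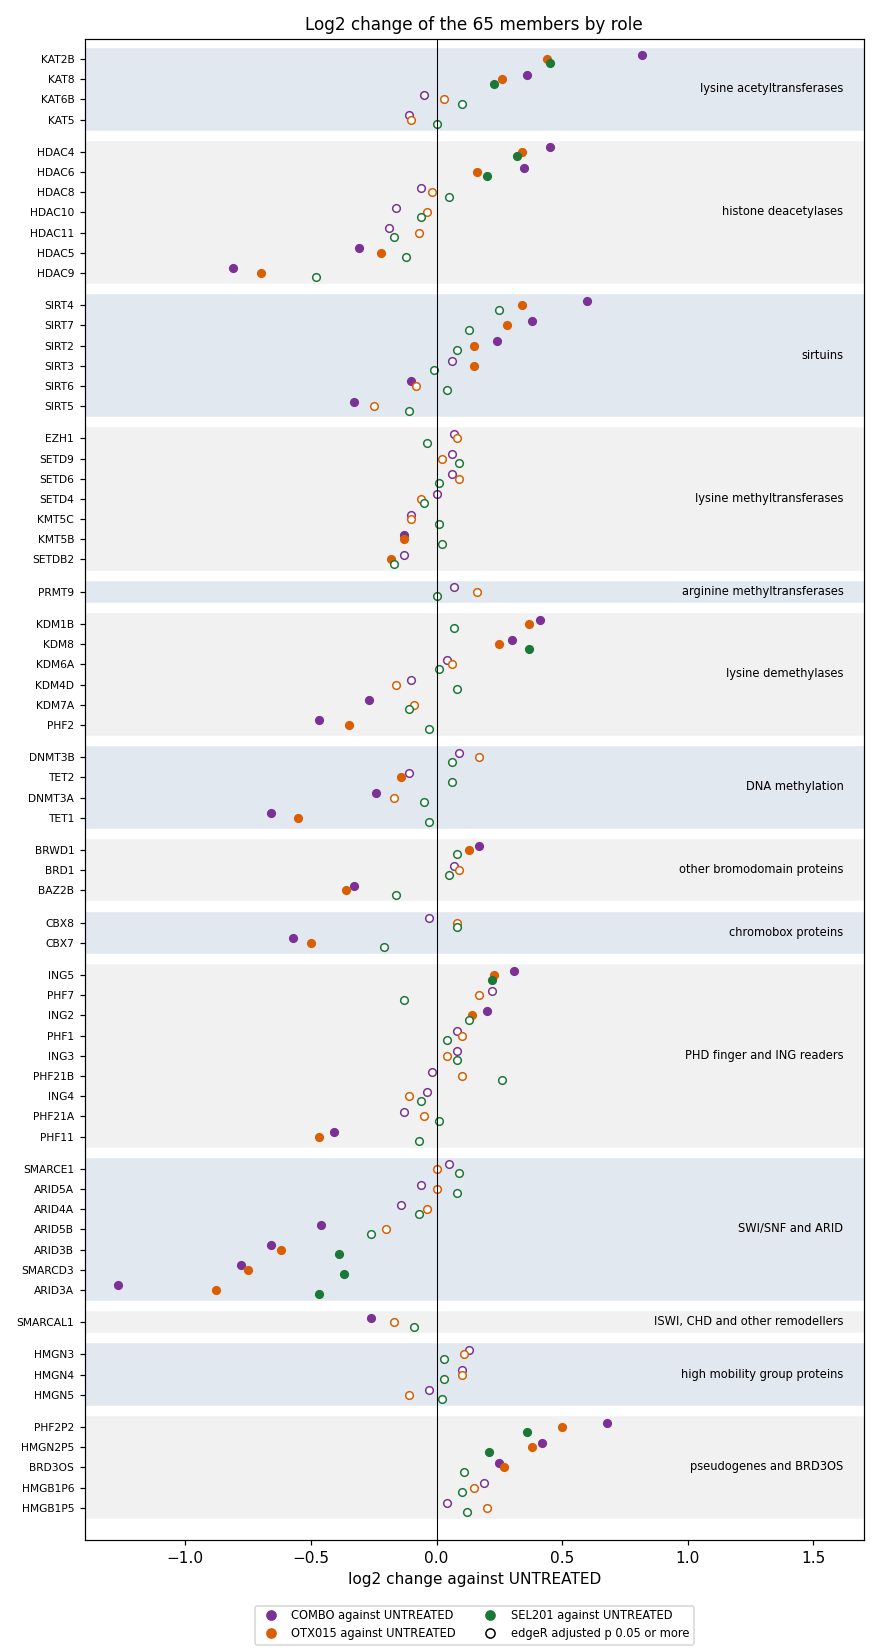
Log2 change against UNTREATED of each of the 65 members, ordered by role, for COMBO, OTX015 and SEL201; filled points passed edgeR adjusted p under 0.05. ARID3A lies farthest left, at -1.27 for COMBO, and KAT2B farthest right, at 0.82.

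Among the 4 lysine acetyltransferases, 2 rose with each treatment and none fell. Over all genes 28.3% were higher and 29.6% lower with COMBO, 23.3% and 24.7% with OTX015, and 10.1% and 11.1% with SEL201. These shares stand beside the counts of every role group below, which hold few genes each. KAT2B, which encodes PCAF, an acetyltransferase of the SAGA and ATAC coactivator complexes, had 350, 378 and 374 CPM in COMBO, 284, 287 and 276 CPM in OTX015, 279, 286 and 284 CPM in SEL201, and 212, 214 and 197 CPM in UNTREATED libraries. All COMBO libraries lay above all single-agent libraries, which in turn lay above all UNTREATED libraries, while the OTX015 and SEL201 libraries overlapped. The log2 change of KAT2B against UNTREATED was 0.82 (SE 0.04, adjusted p = 2.2e-09) with COMBO, 0.44 (SE 0.04, adjusted p = 1.7e-06) with OTX015 and 0.45 (SE 0.04, adjusted p = 1.1e-05) with SEL201. KAT8, the acetyltransferase of the MSL and NSL complexes that acts on histone H4, had 404, 406 and 412 CPM in COMBO, 390, 370 and 383 CPM in OTX015, 376, 366 and 376 CPM in SEL201, and 313, 314 and 325 CPM in UNTREATED libraries. Its UNTREATED libraries were below every treated library, and its log2 changes were 0.36 (adjusted p = 7.3e-07) with COMBO, 0.26 (adjusted p = 2.8e-05) with OTX015 and 0.23 (adjusted p = 0.00035) with SEL201. KAT5, the catalytic subunit of the TIP60 complex, and KAT6B, an H3 acetyltransferase of the MOZ and MORF complexes, were not called against UNTREATED, with log2 changes of -0.11 (adjusted p = 0.078; 0.0088 with the block, which also called the OTX015 change of -0.10) and -0.05 (adjusted p = 0.31) for COMBO. With the block KAT6B was called with SEL201, at a change of 0.10 (adjusted p = 0.032 with the block, 0.1 without). KAT5 overlaps an exon of RNASEH2C on the opposite strand over 38.6% of its exon length, and whether the counting used strand is not given, so reads of the 2 genes cannot be told apart with certainty.

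The 7 histone deacetylases split, with 2 higher and 2 lower for COMBO, 2 higher and 2 lower for OTX015, and 2 higher for SEL201. The class IIa enzymes, which shuttle between nucleus and cytoplasm and repress MEF2 targets, were on both sides. HDAC4 rose. It had 298, 281 and 326 CPM in COMBO, 286, 272 and 277 CPM in OTX015, 280, 273 and 269 CPM in SEL201, and 232, 206 and 222 CPM in UNTREATED libraries, with log2 changes of 0.45 (adjusted p = 7.8e-06), 0.34 (adjusted p = 0.00019) and 0.32 (adjusted p = 0.0012) for COMBO, OTX015 and SEL201. No UNTREATED library reached the lowest treated one. HDAC5 had 325.2, 301.3 and 307.0 CPM in COMBO, 359.5, 333.1 and 305.4 CPM in OTX015, 372.1, 375.2 and 318.2 CPM in SEL201, and 420.1, 370.6 and 370.2 CPM in UNTREATED libraries. It fell with COMBO (log2 change -0.31, adjusted p = 0.0019) and OTX015 (-0.22, adjusted p = 0.023); its OTX015 call was lost in 3 of the 12 fits that leave out 1 library, those without OTX015 library 2, OTX015 library 3 or UNTREATED library 1 (adjusted p up to 0.13). For SEL201, where the groups overlapped, the change was -0.12 (adjusted p = 0.26; 0.015 with the block).

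HDAC9, the third class IIa gene, had 91.2, 96.5 and 164 CPM in COMBO, 98.3, 106 and 173 CPM in OTX015, 130, 122 and 189 CPM in SEL201, and 175, 168 and 272 CPM in UNTREATED libraries. The number 3 library was the highest of each group, and the COMBO libraries all lay below all UNTREATED libraries. Its log2 change was -0.81 (SE 0.27, adjusted p = 0.017; 3.6e-15 with the block) with COMBO, -0.70 (adjusted p = 0.04; 1.6e-13 with the block) with OTX015 and -0.48 (adjusted p = 0.22; 4e-09 with the block) with SEL201. Within library numbers 1, 2 and 3 the COMBO differences were -0.94, -0.80 and -0.73, so every number showed the same direction. The COMBO call was lost without COMBO library 1, COMBO library 2 or UNTREATED library 3, with adjusted p up to 0.086, and the OTX015 call without OTX015 library 1, OTX015 library 2 or UNTREATED library 3 and with DESeq2, with adjusted p up to 0.18. HDAC6, the cytoplasmic tubulin deacetylase, had 155, 148 and 156 CPM in COMBO, 136, 128 and 139 CPM in OTX015, 139, 137 and 139 CPM in SEL201, and 123, 115 and 123 CPM in UNTREATED libraries. It rose by log2 changes of 0.35 (adjusted p = 3.4e-05), 0.16 (adjusted p = 0.018) and 0.20 (adjusted p = 0.01), again with no UNTREATED library in the range of the treated ones. The OTX015 call was lost without OTX015 library 1, OTX015 library 3 or UNTREATED library 2 and without the number 3 libraries (up to 0.085), and the SEL201 call without UNTREATED library 2 (0.053). HDAC8, HDAC10 and HDAC11 were not called in any of these contrasts, with COMBO changes of -0.06, -0.16 and -0.19. HDAC10 shares 55.8% of its exon length with MAPK12 on the same strand, so its reads are uncertain.

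**Figure D3:**
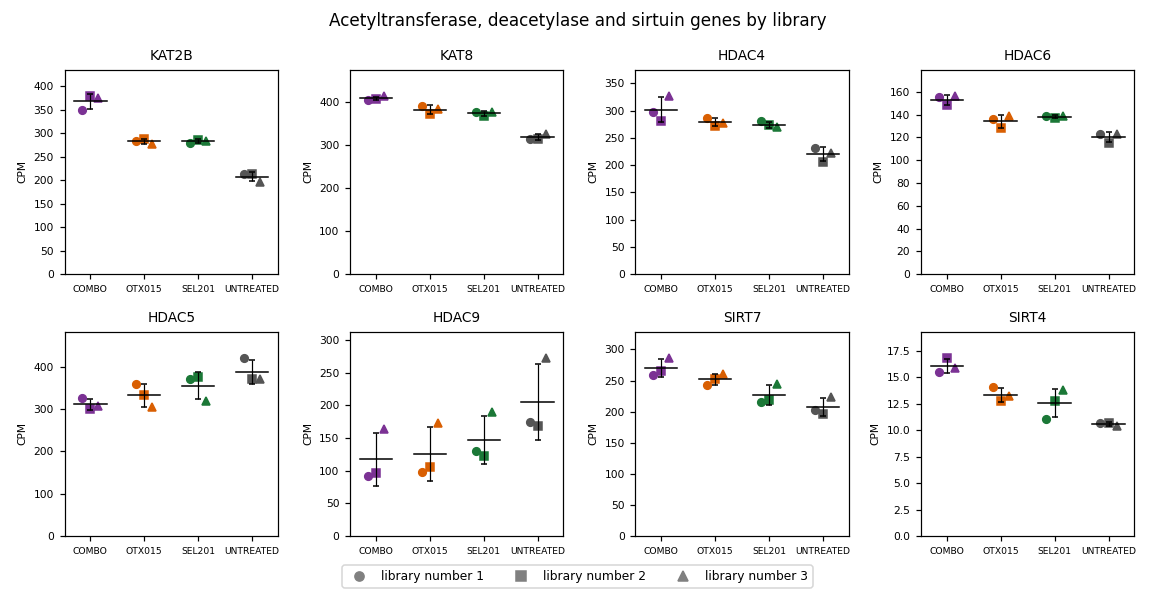
CPM in each library of 2 acetyltransferase, 4 deacetylase and 2 sirtuin genes in COMBO, OTX015, SEL201 and UNTREATED cells; marker shape gives the library number, bars give the mean and SD (n = 3), and each axis starts at 0. KAT2B spans 350 to 378 CPM in COMBO and 197 to 214 CPM in UNTREATED, and the number 3 library of HDAC9 is the highest of each group.

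Of the 6 sirtuins, 3 rose and 2 fell with COMBO, 4 rose with OTX015, and none was called with SEL201. With COMBO 28.3% of all genes were higher and 29.6% lower, and with OTX015 23.3% were higher and 24.7% lower. SIRT4, a mitochondrial sirtuin, had the largest rise of the 6, with 15.5, 16.8 and 15.9 CPM in COMBO, 14.1, 12.8 and 13.2 CPM in OTX015, 11.1, 12.8 and 13.8 CPM in SEL201, and 10.7, 10.7 and 10.4 CPM in UNTREATED libraries. Its log2 change was 0.60 (SE 0.11, adjusted p = 0.00027) with COMBO, 0.34 (adjusted p = 0.02) with OTX015 and 0.25 (adjusted p = 0.13) with SEL201. The OTX015 call was lost without OTX015 library 1, UNTREATED library 3 or the number 3 libraries (adjusted p up to 0.071). SIRT7, a nucleolar sirtuin linked to ribosomal RNA transcription, had 259, 265 and 286 CPM in COMBO, 243, 253 and 260 CPM in OTX015, 215, 219 and 245 CPM in SEL201, and 202, 196 and 224 CPM in UNTREATED libraries. It rose by 0.38 with COMBO (adjusted p = 1e-04) and 0.28 with OTX015 (adjusted p = 0.0018), and its SEL201 change was 0.13 (adjusted p = 0.17; 0.0083 with the block), where the groups overlapped. SIRT2, a mainly cytoplasmic deacetylase, rose by 0.24 with COMBO (adjusted p = 0.00014) and 0.15 with OTX015 (adjusted p = 0.0064).

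On the falling side, SIRT5, a mitochondrial desuccinylase, had 42.2, 36.5 and 37 CPM in COMBO, 43.6, 41.2 and 37.9 CPM in OTX015, 48.1, 38.2 and 49.3 CPM in SEL201, and 48.9, 45.7 and 51.4 CPM in UNTREATED libraries. Its log2 change was -0.33 with COMBO (adjusted p = 0.012) and -0.25 with OTX015 (adjusted p = 0.056; 0.007 with the block). Opposite-strand exons overlap 16.1% of its exon length. The COMBO call did not hold without the number 3 libraries, at an adjusted p of 0.06. SIRT6, a chromatin-bound deacetylase of histone H3, had 296, 289 and 307 CPM in COMBO, 307, 291 and 303 CPM in OTX015, 329, 323 and 330 CPM in SEL201, and 315, 314 and 325 CPM in UNTREATED libraries. This narrow gap gave a log2 change of -0.10 with COMBO (adjusted p = 0.036), and the call was lost in 5 of the 12 fits that leave out 1 library and without the number 3 libraries, with adjusted p up to 0.13. The OTX015 change of SIRT6 was -0.08 (adjusted p = 0.082; 0.033 with the block). SIRT3, the main mitochondrial deacetylase, was called with OTX015 alone (0.15, adjusted p = 0.046) and stood at 0.06 with COMBO (adjusted p = 0.42). That OTX015 call was lost in 10 of the 12 fits that leave out 1 library (up to 0.12).

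The methyltransferase genes among the members moved little. Of the 7 lysine methyltransferases, 1 fell with COMBO and 2 fell with OTX015, and without the block none was called with SEL201. KMT5B, which methylates histone H4, had 323, 326 and 321 CPM in COMBO, 328, 322 and 320 CPM in OTX015, 363, 364 and 350 CPM in SEL201, and 360, 361 and 343 CPM in UNTREATED libraries. The COMBO and OTX015 libraries all lay below all SEL201 and UNTREATED libraries, and the log2 change was -0.13 with COMBO (adjusted p = 0.0047) and -0.13 with OTX015 (adjusted p = 0.0057). SETDB2 fell by 0.18 on the log2 scale with OTX015 (adjusted p = 0.048), a call that was lost in 10 of the 12 fits that leave out 1 library and with RLE factors or column totals as the scaling. With the block SETDB2 was also called lower with COMBO (-0.13, adjusted p = 0.031; 0.13 without) and with SEL201 (-0.17, adjusted p = 0.0087; 0.091 without), and its SEL201 libraries all lay below its UNTREATED libraries. EZH1, the Polycomb methyltransferase typical of non-dividing cells, KMT5C, SETD4, SETD6, SETD9 and the arginine methyltransferase PRMT9 had COMBO changes between -0.10 and 0.07, none called. With OTX015, the block called PRMT9 (0.16, adjusted p = 0.0074; 0.072 without) and SETD6 (0.09, adjusted p = 0.029; 0.19 without), and 21.4% of the exon length of SETD6 overlaps CNOT1 on the opposite strand.

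Of the 6 lysine demethylases, 2 rose and 2 fell with COMBO, 2 rose and 1 fell with OTX015, and 1 rose with SEL201. KDM1B, a flavin-dependent demethylase of histone H3, had 409, 365 and 402 CPM in COMBO, 379, 369 and 398 CPM in OTX015, 321, 301 and 308 CPM in SEL201, and 302, 292 and 294 CPM in UNTREATED libraries. Every library with OTX015, alone or combined, was above every library without it. KDM1B rose by 0.41 with COMBO (adjusted p = 4.8e-06) and 0.37 with OTX015 (adjusted p = 2.1e-05), and its SEL201 change was 0.07 (adjusted p = 0.35). KDM8, a JmjC protein, had 50, 46.3 and 51.7 CPM in COMBO, 50.7, 44.9 and 47.7 CPM in OTX015, 48.3, 55.7 and 51.6 CPM in SEL201, and 42.5, 35.3 and 42.4 CPM in UNTREATED libraries. The treated groups overlapped one another and all lay above UNTREATED, with log2 changes of 0.30 (adjusted p = 0.01), 0.25 (adjusted p = 0.031) and 0.37 (adjusted p = 0.0086) for COMBO, OTX015 and SEL201. Without UNTREATED library 2 the COMBO call was lost (adjusted p = 0.055), and the OTX015 call without OTX015 library 1, OTX015 library 3 or UNTREATED library 2 (up to 0.14). A share of 14.5% of the exon length of KDM8 overlaps an opposite-strand exon.

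PHF2, a JmjC demethylase that binds methylated histone H3 through its PHD finger, had 291, 293 and 295 CPM in COMBO, 329, 319 and 302 CPM in OTX015, 392, 421 and 377 CPM in SEL201, and 412, 410 and 392 CPM in UNTREATED libraries. As for KDM1B but in the other direction, the libraries with OTX015 did not overlap those without it. PHF2 fell with COMBO (-0.47, adjusted p = 8.8e-07) and OTX015 (-0.35, adjusted p = 2.2e-05), and its SEL201 change was -0.03 (adjusted p = 0.72). KDM7A, a related demethylase, had 234, 226 and 236 CPM in COMBO, 272, 251 and 267 CPM in OTX015, 272, 243 and 263 CPM in SEL201, and 296, 279 and 264 CPM in UNTREATED libraries. COMBO lay below the other 3 groups, which overlapped, and KDM7A was called with COMBO (-0.27, adjusted p = 0.00056) but with neither OTX015 (-0.09, adjusted p = 0.2) nor SEL201 (-0.11, adjusted p = 0.17; 0.026 with the block). KDM6A, which removes methyl groups from the Polycomb mark, and KDM4D were not called.

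Of the 4 DNA methylation genes, 2 fell with COMBO and 2 with OTX015, and none was called with SEL201. TET1, which oxidises methylcytosine, had 29.2, 33.1 and 29.8 CPM in COMBO, 31.7, 40 and 27.5 CPM in OTX015, 46.1, 58.6 and 37.7 CPM in SEL201, and 53.5, 54.9 and 37.4 CPM in UNTREATED libraries. The number 3 library was the lowest of the OTX015, SEL201 and UNTREATED groups, and the OTX015 and UNTREATED ranges overlapped while those of COMBO and UNTREATED did not. TET1 fell by 0.66 on the log2 scale with COMBO (SE 0.18, adjusted p = 0.0049) and by 0.55 with OTX015 (SE 0.17, adjusted p = 0.017), and changed by -0.03 with SEL201 (adjusted p = 0.92). The OTX015 call was lost in 4 of the 12 fits that leave out 1 library, those without OTX015 library 1, OTX015 library 3, UNTREATED library 1 or UNTREATED library 2 (up to 0.074). Within numbers 1, 2 and 3 the COMBO differences of TET1 were -0.87, -0.73 and -0.33. DNMT3A, a de novo DNA methyltransferase, had 62.4, 54.8 and 55 CPM in COMBO, 62, 60.4 and 58.7 CPM in OTX015, 71.4, 63.6 and 62 CPM in SEL201, and 77, 66.9 and 59.6 CPM in UNTREATED libraries, and the COMBO and UNTREATED ranges overlapped. Its COMBO change of -0.24 (adjusted p = 0.038) was lost in 4 of the 12 fits that leave out 1 library, those without COMBO library 2, COMBO library 3, UNTREATED library 1 or UNTREATED library 2, and reached an adjusted p of 0.22. With OTX015 its change was -0.17 (adjusted p = 0.15; 0.023 with the block). TET2 fell with OTX015 (-0.14, adjusted p = 0.024) and stood at -0.11 with COMBO (adjusted p = 0.057; 0.019 with the block). Its OTX015 call was lost without OTX015 library 1, OTX015 library 3, UNTREATED library 3 or the number 3 libraries (up to 0.15). DNMT3B was not called, and its largest change was 0.17 with OTX015 (adjusted p = 0.082; 0.023 with the block).

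Readers of histone marks were on both sides. Among the 3 other bromodomain genes, BRWD1 rose and BAZ2B fell with both COMBO and OTX015, and without the block none was called with SEL201. BAZ2B, an accessory subunit of ISWI remodellers, had 85.5, 85.4 and 83.2 CPM in COMBO, 82.2, 89.1 and 77.6 CPM in OTX015, 101, 95 and 89 CPM in SEL201, and 112, 111 and 96.5 CPM in UNTREATED libraries. Its COMBO and OTX015 libraries all lay below its UNTREATED libraries, and its log2 changes were -0.33 (adjusted p = 0.0014) and -0.36 (adjusted p = 0.001). With SEL201 the change was -0.16 (adjusted p = 0.13; 0.015 with the block), and the differences within numbers 1, 2 and 3 were -0.15, -0.22 and -0.12. BRWD1, which joins WD repeats to bromodomains, had 373, 386 and 376 CPM in COMBO, 345, 400 and 357 CPM in OTX015, 349, 358 and 359 CPM in SEL201, and 340, 347 and 321 CPM in UNTREATED libraries. Its changes were 0.17 with COMBO (adjusted p = 0.0097) and 0.13 with OTX015, the second just inside the threshold, and the COMBO call did not hold without the number 3 libraries (adjusted p = 0.055), while the OTX015 call was lost in 9 of the 12 fits that leave out 1 library (up to 0.28). BRD1, a scaffold of histone acetyltransferase complexes, changed by 0.07 with COMBO (adjusted p = 0.25) and 0.09 with OTX015 (adjusted p = 0.16; 0.039 with the block).

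CBX7, a chromodomain subunit of Polycomb repressive complex 1, had 29.3, 31.2 and 28 CPM in COMBO, 32.1, 32.7 and 27.7 CPM in OTX015, 37.8, 36.9 and 39.1 CPM in SEL201, and 42.3, 46.5 and 42.4 CPM in UNTREATED libraries. The order was stepwise. COMBO and OTX015 overlapped at the bottom, SEL201 lay above both, and UNTREATED lay above all. The log2 change was -0.57 (SE 0.08, adjusted p = 4.3e-05) with COMBO, -0.50 (SE 0.08, adjusted p = 0.00019) with OTX015 and -0.21 (adjusted p = 0.093; 0.031 with the block) with SEL201. Opposite-strand exons overlap 17.9% of the exon length of CBX7. CBX8, a second chromodomain subunit of the same complex, was not called against UNTREATED, with a COMBO change of -0.03 (adjusted p = 0.58).

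Of the 9 PHD finger and ING genes, 2 rose and 1 fell with COMBO, 2 rose and 1 fell with OTX015, and 1 rose with SEL201. ING5, a subunit of histone acetyltransferase complexes that reads methylated histone H3, had 314, 296 and 328 CPM in COMBO, 292, 292 and 303 CPM in OTX015, 303, 289 and 295 CPM in SEL201, and 250, 238 and 271 CPM in UNTREATED libraries. The treated groups overlapped and all lay above UNTREATED, with changes of 0.31 (adjusted p = 0.00012), 0.23 (adjusted p = 0.002) and 0.22 (adjusted p = 0.0058) for COMBO, OTX015 and SEL201. ING2, a subunit of the SIN3 deacetylase complex, had 171, 178 and 175 CPM in COMBO, 163, 175 and 167 CPM in OTX015, 161, 171 and 168 CPM in SEL201, and 153, 153 and 151 CPM in UNTREATED libraries. It rose by 0.20 with COMBO (adjusted p = 0.0013) and 0.14 with OTX015 (adjusted p = 0.015), and its SEL201 change was 0.13 (adjusted p = 0.052; 0.014 with the block). The OTX015 call was lost without OTX015 library 2 or the number 3 libraries (up to 0.072). PHF11 had 38.2, 44.8 and 49.9 CPM in COMBO, 40.9, 38.6 and 48 CPM in OTX015, 55.5, 52.7 and 59.4 CPM in SEL201, and 57.9, 54.4 and 63.7 CPM in UNTREATED libraries. Its libraries with OTX015 lay below those without it, with changes of -0.41 (adjusted p = 0.0044) for COMBO, -0.47 (adjusted p = 0.0024) for OTX015 and -0.07 (adjusted p = 0.69) for SEL201. With the block, PHF21A, which binds unmethylated histone H3 in the LSD1 corepressor complex, was also lower with COMBO (-0.13, adjusted p = 0.0016; 0.06 without). With OTX015 the block added ING4 (-0.11, adjusted p = 0.041; 0.28 without) and PHF1 (0.10, adjusted p = 0.033; 0.14 without).

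Among the 7 SWI/SNF and ARID genes, 0 rose and 4 fell with COMBO, 3 fell with OTX015 and 3 fell with SEL201. Over all genes 29.6%, 24.7% and 11.1% were lower in these contrasts. Calls in 1 direction only were also seen without the block among the lysine acetyltransferases, lysine methyltransferases and DNA methylation genes. In the SWI/SNF and ARID group 3 of the 4 that fell, ARID3A, ARID3B and ARID5B, encode DNA-binding proteins and not core subunits of SWI/SNF. Since the role groups were drawn up with results known, these counts are a description. ARID3A, a transcription factor first described as a B-cell regulator of immunoglobulin transcription, had 50.6, 56.2 and 49.6 CPM in COMBO, 68, 74.7 and 62.6 CPM in OTX015, 86.1, 102 and 84.5 CPM in SEL201, and 123, 134 and 119 CPM in UNTREATED libraries. The 4 groups did not overlap. ARID3A fell by 1.27 on the log2 scale with COMBO (SE 0.09, adjusted p = 3.3e-08), by 0.88 with OTX015 (SE 0.09, adjusted p = 2.1e-06) and by 0.47 with SEL201 (SE 0.09, adjusted p = 0.0016), the largest falls of the members for COMBO and OTX015.

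SMARCD3, the BAF60C subunit of SWI/SNF, had 26.4, 29.8 and 35.9 CPM in COMBO, 29.1, 31.1 and 33.3 CPM in OTX015, 39.3, 42.3 and 40.1 CPM in SEL201, and 52.2, 55.3 and 49.6 CPM in UNTREATED libraries. COMBO and OTX015 overlapped, both lay below SEL201, and SEL201 lay below UNTREATED. The log2 changes were -0.78 (SE 0.10, adjusted p = 1.4e-05), -0.75 (SE 0.10, adjusted p = 3.3e-05) and -0.37 (SE 0.10, adjusted p = 0.017), the last lost without SEL201 library 1 or UNTREATED library 2 (up to 0.069). Opposite-strand exons overlap 11% of the exon length of SMARCD3. ARID3B, a close relative of ARID3A, had 43.7, 50 and 52.7 CPM in COMBO, 49.5, 47.2 and 53.5 CPM in OTX015, 52.9, 60.7 and 62.3 CPM in SEL201, and 67.8, 73.4 and 89.3 CPM in UNTREATED libraries. Here UNTREATED lay above all treated libraries, and the changes were -0.66 (adjusted p = 1e-04), -0.62 (adjusted p = 0.00026) and -0.39 (adjusted p = 0.017), the SEL201 call being lost without SEL201 library 1 or UNTREATED library 3 (up to 0.082). ARID5B, which works with PHF2 in a demethylase complex, had 101, 98.2 and 82.5 CPM in COMBO, 119, 126 and 93.1 CPM in OTX015, 116, 118 and 90.3 CPM in SEL201, and 142, 138 and 109 CPM in UNTREATED libraries. The number 3 library was the lowest of each group, and only COMBO was called, at -0.46 (SE 0.13, adjusted p = 0.0083). The OTX015 change was -0.20 (adjusted p = 0.23; 0.00063 with the block) and the SEL201 change -0.26 (adjusted p = 0.19; 7e-05 with the block). ARID4A, ARID5A and SMARCE1 were not called in these contrasts without the block; with it ARID4A was lower with COMBO (-0.14, adjusted p = 0.01) and SMARCE1 higher with SEL201 (0.09, adjusted p = 0.042). A gene on the same strand overlaps 19.8% of the exon length of SMARCE1.

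**Figure D4:**
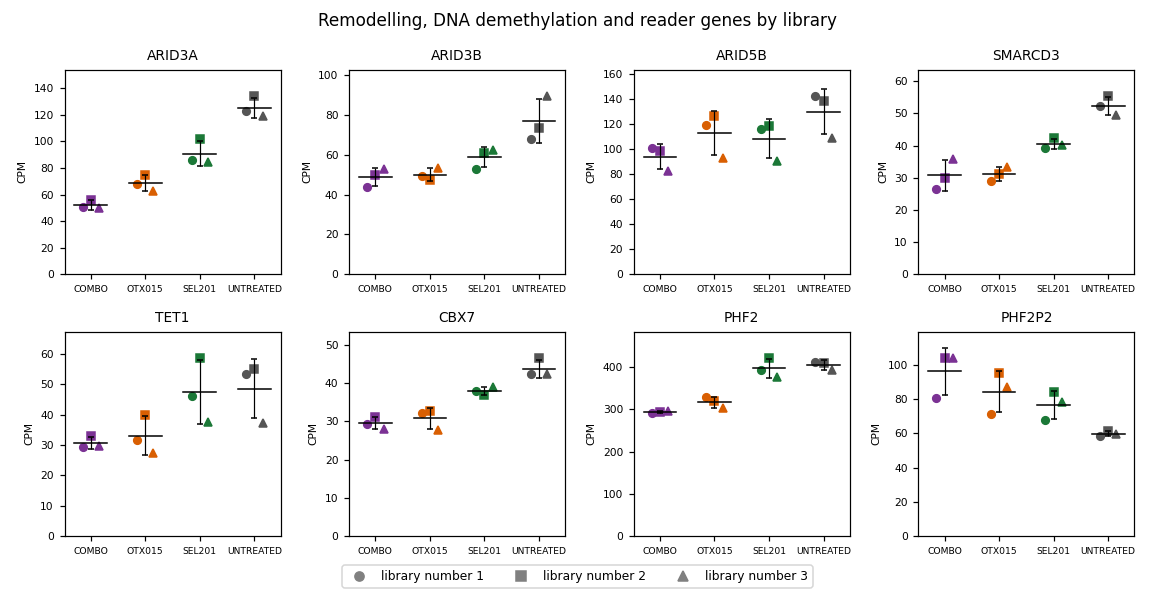
CPM in each library of ARID3A, ARID3B, ARID5B, SMARCD3, TET1, CBX7, PHF2 and PHF2P2 in COMBO, OTX015, SEL201 and UNTREATED cells; marker shape gives the library number, bars give the mean and SD (n = 3), and each axis starts at 0. ARID3A spans 49.6 to 56.2 CPM in COMBO and 119 to 134 CPM in UNTREATED, and PHF2 and PHF2P2 run in opposite directions with COMBO and OTX015.

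The remaining enzymes and structural proteins changed little. SMARCAL1, an annealing helicase at stalled replication forks, had 173, 152 and 165 CPM in COMBO, 188, 158 and 176 CPM in OTX015, 194, 178 and 178 CPM in SEL201, and 197, 199 and 189 CPM in UNTREATED libraries. It fell with COMBO (-0.26, adjusted p = 0.0038), and its OTX015 change was -0.17 (adjusted p = 0.05, just outside the threshold; 0.0018 with the block). The nucleosome-binding proteins HMGN3, HMGN4 and HMGN5 changed by 0.13, 0.10 and -0.03 with COMBO, none called; with the block HMGN3 (adjusted p = 0.011) and HMGN4 (adjusted p = 0.014) were, as they were with OTX015 (0.11, adjusted p = 0.031, and 0.10, adjusted p = 0.009). Antisense HMGN3-AS1 overlaps 19% of the exon length of HMGN3.

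The choice by symbol also took in 4 processed or unprocessed pseudogenes and BRD3OS, a small gene beside BRD3, and 3 of these 5 rose with COMBO, 3 with OTX015 and 2 with SEL201. Reads of a pseudogene can belong to its parent gene, so these values are uncertain. Over all genes 28.3%, 23.3% and 10.1% were higher with COMBO, OTX015 and SEL201. PHF2P2 had 80.7, 104 and 104 CPM in COMBO, 71.1, 95.1 and 87.4 CPM in OTX015, 68, 84.3 and 78.2 CPM in SEL201, and 58.6, 61.3 and 59.7 CPM in UNTREATED libraries, with UNTREATED below all treated libraries. Its changes were 0.68 (adjusted p = 0.00017), 0.50 (adjusted p = 0.0029) and 0.36 (adjusted p = 0.043) for COMBO, OTX015 and SEL201. Those with COMBO and OTX015 ran opposite to the changes of PHF2, which was not called with SEL201 (-0.03, adjusted p = 0.72). The SEL201 call was lost in 5 of the 12 fits that leave out 1 library (up to 0.16), and the number 1 library was the lowest of each group. HMGN2P5 had 241, 253 and 230 CPM in COMBO, 229, 245 and 227 CPM in OTX015, 208, 210 and 206 CPM in SEL201, and 178, 185 and 177 CPM in UNTREATED libraries, and rose by 0.42 (adjusted p = 2.1e-06), 0.38 (adjusted p = 1.2e-05) and 0.21 (adjusted p = 0.0049). BRD3OS changed by 0.25 with COMBO (adjusted p = 0.0074) and 0.27 with OTX015 (adjusted p = 0.0057), and by 0.11 with SEL201 (adjusted p = 0.29; 0.025 with the block); BRD3 overlaps 21.4% of its exon length on the opposite strand. HMGB1P5 and HMGB1P6 were not called.

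To see whether adding OTX015 moved the same genes in the presence of SEL201, COMBO was set against SEL201, a contrast that shares no library with OTX015 against UNTREATED. There 10 members were higher and 12 lower, against 18.8% and 21.2% of all genes. With the block 14 were higher and 24 lower, against 26% and 27.4% of all genes in that fit. Of the members higher with OTX015 alone, 56.2% were also higher when OTX015 was added to SEL201, and of those higher in the second contrast 90% were higher in the first, 9 genes in common. For lower members the shares were 61.5% and 66.7%, 8 genes in common, and none was called in opposite directions. Over all genes the shares were 69.2% and 85.6% for higher and 74.8% and 86.8% for lower genes. The largest rises against SEL201 were KAT2B (0.38, adjusted p = 1.3e-05), PHF7 (0.35, adjusted p = 0.011) and SIRT4 (0.35, adjusted p = 0.018), and the largest falls ARID3A (-0.80, adjusted p = 1.1e-05), TET1 (-0.63, adjusted p = 0.011) and PHF2 (-0.44, adjusted p = 6.5e-06). PHF7, a PHD and RING finger protein known from testis, had 27.1, 32.2 and 30.2 CPM in COMBO and 24.9, 24.2 and 21.2 CPM in SEL201 libraries, beside 30.4, 29.3 and 27 CPM in OTX015 and 24.5, 27.5 and 25 CPM in UNTREATED libraries. It was not called with COMBO against UNTREATED (0.22, adjusted p = 0.066; 0.03 with the block), and its call against SEL201 was lost without COMBO library 2 or without the number 3 libraries (adjusted p up to 0.074). That of SIRT4 was lost without COMBO library 2 or SEL201 library 1 (up to 0.085), and that of TET1 without SEL201 library 2 (0.063).

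Adding SEL201 to OTX015 moved fewer members. Against OTX015, 2 were higher and 1 was lower with COMBO, where 2.9% of all genes were higher and 4.01% lower; with the block the counts were 6 and 5, where 10% and 12.2% of all genes were called. The members called with the block alone were KAT8, HDAC4, SIRT7 and PHF2P2, higher, and CBX8, KDM7A, PHF2 and ARID5B, lower. KAT2B rose by 0.38 (SE 0.04, adjusted p = 0.00017), HDAC6 rose by 0.19 (SE 0.05, adjusted p = 0.035) and ARID3A fell by 0.39 (SE 0.09, adjusted p = 0.018) on the log2 scale. These 3 genes were also called in the same direction with SEL201 against UNTREATED, which shares no library with that contrast, and they are 25% of the members higher with SEL201 alone and 33.3% of those lower, beside 22.4% and 28.4% over all genes. Only KAT2B kept its call in every alternative fit. The HDAC6 call was lost in 5 of the 12 fits that leave out 1 library. It was also lost without the number 3 libraries and with the compared groups only (up to 0.14). That of ARID3A was lost without COMBO library 1, COMBO library 3, OTX015 library 1 or OTX015 library 2 (up to 0.081).

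OTX015 and SEL201 were also set against each other, and 3 members were higher and 9 lower with OTX015, where 10.4% of all genes were higher and 13.1% lower; with the block 8 were higher and 15 lower, against 18.7% and 21.1% of all genes in that fit. The higher members were KDM1B (0.30, adjusted p = 0.00055), PHF7 (0.30, adjusted p = 0.037) and HMGN2P5 (0.17, adjusted p = 0.016). The 3 largest falls were TET1 (-0.52, adjusted p = 0.045), ARID3A (-0.41, adjusted p = 0.0044) and PHF11 (-0.39, adjusted p = 0.016), and SMARCD3 followed at -0.38 (adjusted p = 0.015). The KAT2B change between the agents was -0.00 (SE 0.04, adjusted p = 0.97). The call was lost for PHF7 in 4 and for TET1 in 8 of the 12 fits that leave out 1 library, with adjusted p up to 0.13 and 0.2. It was lost for PHF11 without OTX015 library 1, OTX015 library 2 or SEL201 library 3 (up to 0.07), for SMARCD3 without OTX015 library 1 or SEL201 library 2 (up to 0.066) and for HMGN2P5 without OTX015 library 2 (0.075).

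Of the 15 members that rose with COMBO, 13 had a COMBO mean above both single-agent means, and all 15 had both single-agent means above UNTREATED. Of the 17 that fell, 14 had a COMBO mean below both single-agent means, and 15 had both single-agent means below UNTREATED. The OTX015 mean was farther from UNTREATED than the SEL201 mean in 11 of the 15 and in 15 of the 17. These members were picked by their COMBO and UNTREATED values, which favours such an order in advance. No share over all called genes was computed beside these counts. The orders describe means and were not tested as a group.

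Whether the COMBO change differed from the sum of the single-agent changes was tested as an interaction. No member was called, higher or lower, with edgeR or with DESeq2, against 0.21% and 0.0699% of all genes with edgeR. The unadjusted edgeR p was under 0.05 for 10 members, and the matching share of all genes was not computed. In simulated data the interaction test recovered 4% of the smallest planted changes and 58% of those of 1.5-fold. A lack of calls therefore tells little about small interactions. For KAT2B the interaction was -0.07 (SE 0.06, adjusted p = 0.85) and for ARID3A 0.08 (SE 0.12, adjusted p = 0.93) on the log2 scale. With the library number as a block, 2 members were called higher and 3 lower, against 4.02% and 2.73% of all genes in that fit, which is near the members' share.

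**Figure D5:**
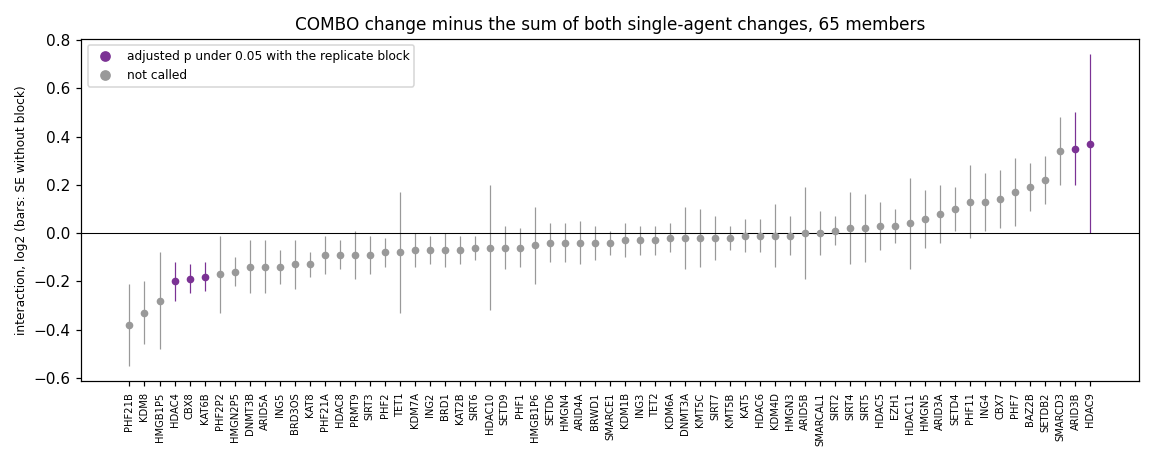
Interaction of SEL201 and OTX015 for each of the 65 members, that is the COMBO log2 change minus the sum of the 2 single-agent changes, with the SE of the fit without block as bars; coloured points were called with the library number as a block. Values run from -0.38 for PHF21B to 0.37 for HDAC9.

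Partner subunits that the symbol rule does not reach were taken from a list of 97 genes, of which 18 were measured. With COMBO 5 rose and 5 fell (27.8% each), where 28.3% of all genes were higher and 29.6% lower. With OTX015 5 rose and 3 fell (27.8% and 16.7%), where 23.3% of all genes were higher and 24.7% lower. With SEL201 3 rose (16.7%) and 0 fell, where 10.1% of all genes were higher and 11.1% lower. SAP30, a subunit of the SIN3 deacetylase complex, had 277, 288 and 259 CPM in COMBO, 269, 263 and 251 CPM in OTX015, 220, 214 and 203 CPM in SEL201, and 172, 172 and 165 CPM in UNTREATED libraries. UNTREATED lay below all others and SEL201 below both groups with OTX015, with log2 changes of 0.70 (adjusted p = 3e-08), 0.62 (adjusted p = 2e-07) and 0.32 (adjusted p = 0.00034). MTA3, a subunit of the NuRD deacetylase complex, fell with COMBO (-0.41, adjusted p = 4.2e-06) and OTX015 (-0.32, adjusted p = 6.9e-05). CECR2, a bromodomain partner of ISWI remodellers, rose by 0.62 with COMBO (adjusted p = 0.00013), 0.51 with OTX015 (adjusted p = 0.00093) and 0.44 with SEL201 (adjusted p = 0.0076). DPF3, a PHD finger subunit of SWI/SNF, rose by 0.92 with COMBO (adjusted p = 0.00081) and had 4.16 to 9.99 CPM over the COMBO and UNTREATED libraries. PCGF6, a subunit of a variant Polycomb complex, and BCL7C, a SWI/SNF subunit, fell by 0.25 (adjusted p = 4e-04) and 0.18 (adjusted p = 0.0021) on the log2 scale with COMBO.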

How the data were processed

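RNA-seq of A375 cells was given as 1 table of raw counts for 8579 genes in 12 libraries, 3 in each of 4 groups. Tools listed in the submitters' processing notes, with no role stated, are featureCounts, STAR 2.5.4b, DESeq2, SAMtools 1.9, Trimmomatic and FastQC, with hg19 as the build. How strand was treated in counting, which annotation was used and whether genes were filtered is not given in the sources used here. Deposited count values are whole numbers that the authors left without normalization, and column totals over these genes (15146071 to 24111541) are not the sequencing depth.

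From the counts, edgeR 4.0.16 (R 4.3.3) with TMM scaling (factors 0.991 to 1), its default low-count filter (all 8579 genes passed) and the quasi-likelihood test was fitted to all 12 libraries as 4 group means. Contrasts, 7 in all, were adjusted by Benjamini-Hochberg over all genes at 0.05, two-sided. CPM use TMM library sizes, and an SE is the log2 change divided by the root of its F value. The common biological coefficient of variation was 7.92%. The scripts were tested on simulated data. Replicates of a group were no duplicates, since their chi-square per degree of freedom was at least 6.34.

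Library numbers come from the labels, which do not say that a number marks a shared culture. Deviations from group means correlated at 0.26 to 0.57 in the 18 same-number pairs and at -0.46 to 0.19 in the 36 others. The numbers were therefore taken to pair the libraries. For members against UNTREATED a fit with the number as a block is given beside the calls it changes, for other contrasts as counts. Values and counts of partner genes are from the fit without the block, which changes some of their calls.

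The members, role groups and partner list were chosen with earlier results of these data known. Named with values per library are, per role group, up to 2 called members with the largest rise and 2 with the largest fall for COMBO, and for other contrasts up to 3 each way; partners are the 6 of lowest p. KAT2B's and ARID3A's interactions and the single-contrast calls were named after their values were seen. Gene types and exon overlaps are from GENCODE v29 (GRCh38), promoters from RefSeq GRCh38.p14; no coordinates were converted. Alternatives were DESeq2 1.42.0, RLE factors, column totals, no filter, at least 10 CPM in 3 libraries, the compared groups only, the block, no number 3 libraries and each library left out.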

Additional observations from a re-analysis of the deposited data

Results flagged for a closer look

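For 5 members the COMBO change differed from the sum of the single-agent changes once the library number was a block, although none was called without it, with or without the number 3 libraries. In the fit with the block 4.02% of all genes were called higher and 2.73% lower, and the members' 2 and 3 of 65 are near that share. With the block, the interaction on the log2 scale was 0.37 for HDAC9 (edgeR adjusted p = 0.00079; 0.87 without the block) and 0.35 for ARID3B (adjusted p = 0.021; 0.48 without), both positive while the change with each agent against UNTREATED was negative. It was -0.20 for HDAC4 (adjusted p = 0.027; 0.41 without), which rose with each agent. CBX8 had -0.18 (adjusted p = 0.028; 0.27 without) and KAT6B -0.18 (adjusted p = 0.034; 0.3 without). CBX8 had 262, 266 and 261 CPM in COMBO, 291, 281 and 276 CPM in OTX015, 278, 279 and 295 CPM in SEL201, and 278, 263 and 264 CPM in UNTREATED libraries, so COMBO lay below both single agents and overlapped UNTREATED. KAT6B had 283, 284 and 303 CPM in COMBO, 308, 310 and 300 CPM in OTX015, 325, 326 and 316 CPM in SEL201, and 315, 288 and 299 CPM in UNTREATED libraries, and COMBO again overlapped UNTREATED.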

How the results depend on the processing

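Counts of members called moved most with the library number as a block. With it, members lower with OTX015 numbered 20, higher and lower with SEL201 13 and 10, lower with COMBO against SEL201 24, higher and lower with COMBO against OTX015 6 and 5, higher and lower with OTX015 against SEL201 8 and 15, and the interaction gave 2 and 3. Of the 183 member and contrast pairs recomputed it added 74 calls and removed none. Without the number 3 libraries, lower with SEL201 were 5, and with COMBO against OTX015 1 was higher and 2 lower. For that last contrast DESeq2 and column totals each gave 2 lower, and a fit of its own groups 1 higher. Leaving out each library in turn gave 15 to 17 higher and 14 to 18 lower for COMBO against UNTREATED, 12 to 17 and 10 to 14 for OTX015, 6 to 9 and 1 to 3 for SEL201, 7 to 10 and 10 to 14 for COMBO against SEL201, 1 to 2 and 0 to 2 for COMBO against OTX015, 1 to 4 and 6 to 10 for OTX015 against SEL201, and 0 for the interaction. Among those pairs, HDAC9 in OTX015 against SEL201 (not called) ran from -0.523 to 0.000 over the fits that leave out 1 library and is the one value counted as reversed, without SEL201 library 3; pairs called in neither fit were not recomputed. In every alternative 26 of 32 COMBO calls, 18 of 29 OTX015 calls and 7 of 11 SEL201 calls against UNTREATED were kept. No such share was computed over all genes. Calls over all genes also rose with the block, for SEL201 against UNTREATED from 867 higher and 953 lower to 1541 and 1639. Without the number 3 libraries, COMBO against UNTREATED gave 2315 higher and 2470 lower over all genes, from 2426 and 2536. With the compared groups only, calls against UNTREATED were also lost for DNMT3A and SIRT6 with COMBO, and for KDM8, BRWD1 and SETDB2 with OTX015. TET1 and PHF7 were lost there for OTX015 against SEL201. Without the number 3 libraries, calls were also lost for BRWD1, SETDB2 and SIRT3 with OTX015 and PHF2P2 with SEL201, against UNTREATED. PHF7 was lost there for OTX015 against SEL201. The causes were not tested. Column totals differed by library, and 3 libraries a group limit the precision of each value.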
